A study of Mus musculus with 4 samples.

Results

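The 8 genes described here, *Srebf2*, *Insig1*, *Hmgcs1*, *Idi1*, *Fdps*, *Fdft1*, *Sqle* and *Lss*, were chosen by name as genes of the SREBP2 pathway of cholesterol synthesis, and were found among the 53465 genes listed in the expression table. *Srebf2* and *Insig1* are regulators, and the other 6 genes encode enzymes of the route from acetyl-CoA to lanosterol. None of the 8 takes up sterol, so uptake genes were counted apart, from a list of their own. Their mRNA was measured by Long RNA-seq in female germline stem cells (FGSCs), cultured cells labelled as germ stem cells of the mouse ovary, to compare cells with and without depletion of *Nat10*, the enzyme that writes the RNA modification N4-acetylcytidine. Each group had 2 libraries. The shNC cells carried a negative control shRNA and the shNAT10 cells an shRNA against *Nat10*. According to the study, the shRNAs were delivered by lentivirus and infected cells were selected with puromycin or blasticidin S. The labels do not give the strain or age of the donor animals, the time after infection or which *Nat10* shRNA was used. The study calls the libraries of a group biological replicates. Neither source says whether they came from separate cultures, and p-values then measure only the spread between these libraries, which may be in part technical.

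Cells make cholesterol from acetyl-CoA by way of mevalonate, isoprenoid diphosphates and squalene. SREBP2, the product of *Srebf2*, waits in the endoplasmic reticulum membrane with its escort SCAP. INSIG1 holds the pair there while sterol is plentiful, and when sterol falls SREBP2 travels to the Golgi, is cut free and switches on the genes of the pathway, *Insig1* and *Srebf2* among them. The isoprenoids made on the way also serve protein prenylation, dolichol and coenzyme Q.

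*Nat10* was measured at 7.79 and 5.42 FPKM (fragments counted on a gene, scaled to the length of its exons and by a divisor of each library) in the shNC libraries and at 2.95 and 3.04 FPKM in the shNAT10 libraries, so both knockdown libraries lay below both controls. Its log2 fold change was -1.09 (SE 0.21, adjusted p = 0.123, limma with Benjamini-Hochberg adjustment). By the threshold given next it was called, but not without shNAT10 replicate 1 or shNAT10 replicate 2. Fold changes here are on the scale of log2(FPKM + 0.1), shNAT10 over shNC, and a gene was called, that is, counted as having changed, at a fold change over 1.2 with an unadjusted p of at most 0.05. At that threshold 16.2% of the 20116 genes tested were called, 8.41% higher and 7.83% lower, while an adjusted p under 0.05 was reached by 0.437% of them. Between 11055849 and 14900422 recovered fragments per library fell on genes, while the divisors ran from 11745600 to 15330600 and did not follow these totals. Fragments on genes came to 1.27 and 1.1 times the divisor in shNC and to 0.881 and 0.898 times in shNAT10, and the part of this in the results was not tested beyond the other scalings tried, under which *Idi1*, *Insig1* and *Fdps* were called as well. The median-ratio size factor of the deposited values was 1.004 in each library, so that median-ratio rescaling, among these scalings, could hardly move any value. Of 6 female germline markers, *Dazl*, *Pou5f1* and *Dppa3* were listed at 0 in all 4 libraries and *Ddx4* in 3 of them. *Prdm1* did not exceed 0.0916 FPKM, and only *Ifitm3* was plainly detected, at 9.29 and 22.2 FPKM in shNC, against 27.1 and 33.6 FPKM in shNAT10. The defining germline markers were thus absent or nearly so in these libraries. The study characterised its FGSCs by RT-PCR of *Oct4* (*Pou5f1*), *Ddx4*, *Fragilis* and *Blimp1*, and by immunofluorescence of DDX4 and OCT4. All 4 leukocyte markers were detected here, with a summed level of 340 and 384 FPKM in shNC, against 285 and 299 FPKM in shNAT10. The mast cell marker *Cpa3* stood at 245 to 272 FPKM, with *Fcer1a* listed at 0. The 5 mast cell markers summed to values from 288 to 302 FPKM in shNC and from 302 to 308 FPKM in shNAT10. Nearly all of this was *Cpa3* and *Gata2*, the latter at 31.6 to 41.5 FPKM. *Ms4a2* lay between 0.539 and 3.77 FPKM and *Hdc* between 0.0408 and 0.160 FPKM. The 5 fibroblast markers, with *Lum* listed at 0, summed to 51.0 and 44.2 FPKM in shNC and to 59.5 and 49.9 FPKM in shNAT10. Most of this was *Dcn*, at 36.2 to 45.9 FPKM, while *Col1a1* lay between 0.480 and 0.667 FPKM and *Col1a2* between 2.24 and 2.71 FPKM. The 4 granulosa markers did not exceed 0.204 FPKM in sum, with *Foxl2* and *Fshr* listed at 0. Of the meiosis markers, *Stra8* was listed at 0 and *Sycp3* lay between 0.337 and 0.774 FPKM. The text of the study reports that both rose after *Nat10* knockdown, by RT-qPCR and western blotting. Of 4 tested fibroblast markers *Pdgfra* was called higher (log2 fold change 0.83), and of 3 tested mast cell markers *Ms4a2* higher (2.12) and *Gata2* lower (-0.33). Of 4 tested leukocyte markers *Cd53* (-0.58) and *Laptm5* (-0.64) were called lower. No tested germline, meiosis or granulosa marker was called. Beside these stand 8.41% of all genes called higher and 7.83% lower. In bulk RNA, fewer cells of a type and less RNA per cell cannot be told apart, and the part of these markers in the values below was not tested.

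Promoter sequence was at hand for 5 of the 8 genes (RefSeq, GRCm38.p6), as windows from 250 bases before to 50 bases after the annotated start. Each was searched on both strands for a sterol regulatory element, the site that SREBP2 binds, and for the boxes of NF-Y (CCAAT) and Sp1 (GGGCGG), which often lie near it. The strict form of the element, TCACNCCAC, was in 1 of the 5 windows, that of *Hmgcs1*, and in 1.24% of all 32851 windows. Allowing 1 mismatch to TCACCCCAC, a form that overlaps the strict one, added *Srebf2*, so that 2 of 5 windows matched beside 9.82% of all. CCAAT and GGGCGG were each in 5 of 5 windows, beside 37.41% and 35.66% of all windows. The *Hmgcs1* and *Srebf2* sequences are shown because they hold the element, and that of *Idi1* because it is the only one of the 8 genes that rose. Only bases upstream of any annotated transcript are printed, 5′ to 3′ on the plus strand, and capitals mark the motif matches (ATTGG is CCAAT and CCGCCC is GGGCGG on the other strand). *Hmgcs1* covers chr13:119690101-119690350, *Srebf2* chr15:82147019-82147180 and *Idi1* chr13:8885356-8885500.
Hmgcs1: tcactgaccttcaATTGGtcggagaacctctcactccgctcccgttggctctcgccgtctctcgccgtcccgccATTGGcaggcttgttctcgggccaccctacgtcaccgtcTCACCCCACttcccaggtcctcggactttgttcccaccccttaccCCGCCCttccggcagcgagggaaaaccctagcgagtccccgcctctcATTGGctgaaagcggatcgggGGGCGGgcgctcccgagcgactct
Srebf2: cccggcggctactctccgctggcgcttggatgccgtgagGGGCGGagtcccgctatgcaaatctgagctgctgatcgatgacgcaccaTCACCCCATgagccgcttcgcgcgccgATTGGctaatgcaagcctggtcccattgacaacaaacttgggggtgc
Idi1: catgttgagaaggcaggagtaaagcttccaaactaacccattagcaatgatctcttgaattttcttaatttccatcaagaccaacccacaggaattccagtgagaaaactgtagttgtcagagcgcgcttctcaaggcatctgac
The element of *Hmgcs1*, TCACCCCAC, lay at -137 to -129 from the annotated start, and that of *Srebf2*, TCACCCCAT, at -162 to -154. *Idi1* had no match to the element in its window. Its CCAAT boxes at -45 and -14 and its GGGCGG box at -69 lie downstream of the bases printed, where some annotated transcripts have already begun. A match is a run of letters and not a shown binding site, and its absence says only that these letters are not in the window.

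**Figure D1:**
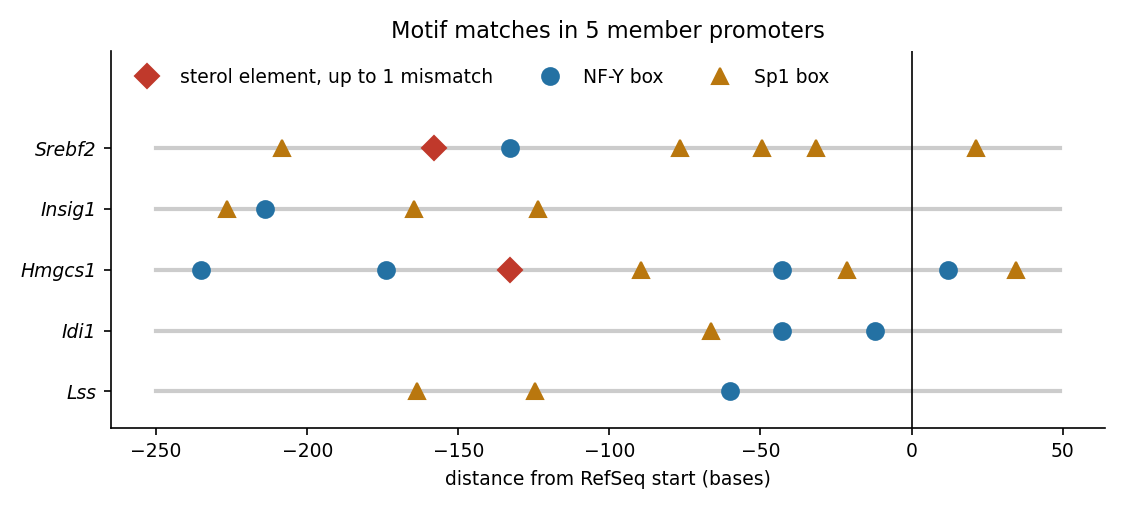
Motif matches in the promoter windows of 5 genes, by distance from the RefSeq start in bases (position 0), each grey line being a window and each symbol a match on either strand. The sterol element with up to 1 mismatch appears in *Hmgcs1* and *Srebf2*, and each window holds at least 1 NF-Y box and 1 Sp1 box.

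FPKM is a level per length of exon, so levels can be set side by side between genes, but only roughly. The annotated exons may be longer than the transcripts present, as could hold for *Lss*, with 10787 exon bases and 2223 coding bases. The part of exon length in the order of the genes was not tested. In shNC *Insig1* was the highest of the 8, at 33.6 ± 1.47 FPKM (SD, n = 2), and *Fdps* the lowest, at 0.714 ± 0.0658 FPKM (SD, n = 2). The place of *Fdps* is uncertain. The annotated gene *Gm43738* on the same strand covers 85.9% of its coding bases and was listed at 0 in all 4 libraries. In addition, 23.5% of the *Fdps* transcript sequence is shared with transcripts of other genes. The part of either in its low level was not tested. By mean FPKM over the 4 libraries *Insig1* had a percentile of 93.7 among the genes tested, *Sqle* of 84.0 and *Fdps* of 28.2. *Sqle* came second in shNC, at 12.4 ± 2.06 FPKM (SD, n = 2), and its libraries overlapped neither those of *Insig1* nor those of the next gene. *Hmgcs1*, *Idi1*, *Srebf2*, *Fdft1* and *Lss* followed between 3.86 and 6.25 FPKM on average, and each overlapped the next, while *Fdps* lay below them without overlap. In shNAT10 *Idi1* moved from the 4th to the 3rd place and its libraries overlapped those of *Sqle*. The 6 enzymes summed to 34.7 and 31.9 FPKM in shNC and to 33.4 and 29.7 FPKM in shNAT10, which overlapped. Recovered fragments, a measure of counting precision, numbered from 108 over the 4 libraries for *Fdps* to 4642 for *Insig1*.

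In shNAT10 cells *Idi1* rose, *Insig1* and *Fdps* fell, and the other 5 genes did not pass the threshold. The called genes were 37.5% of the 8, with 12.5% higher and 25% lower, to be read against the shares of all genes given above. With 1 library left out, limma called 2 of the 8 (*Idi1* and *Fdft1*, without shNC replicate 1), 0 (without shNC replicate 2), 1 (*Fdps*, without shNAT10 replicate 1) or 1 (*Insig1*, without shNAT10 replicate 2). In these fits 16.9%, 15.5%, 9.98% and 10.9% of all genes were called, so that a count of 1 in 8 is near the share of all genes. The log2 fold change was below 0 in 7 of 8 genes and had a median of -0.33, beside a median of 0.01 over all genes tested, of which 49.5% were below 0. The libraries of the groups did not overlap in 5 of the 8 genes, with shNAT10 below in 4 and above in 1. Of all genes tested, 24.1% lay below in this way and 23.9% above. None of the 8 reached an adjusted p under 0.05 with limma, although 3 had an unadjusted p under 0.05. For a single gene, 2 against 2 libraries cannot give an exact two-sided permutation p below 0.3333, and *Insig1*, *Hmgcs1*, *Idi1*, *Fdps* and *Fdft1* had this value. *Sqle* had an exact p of 0.6667, and *Srebf2* and *Lss* of 1.

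**Figure D2:**
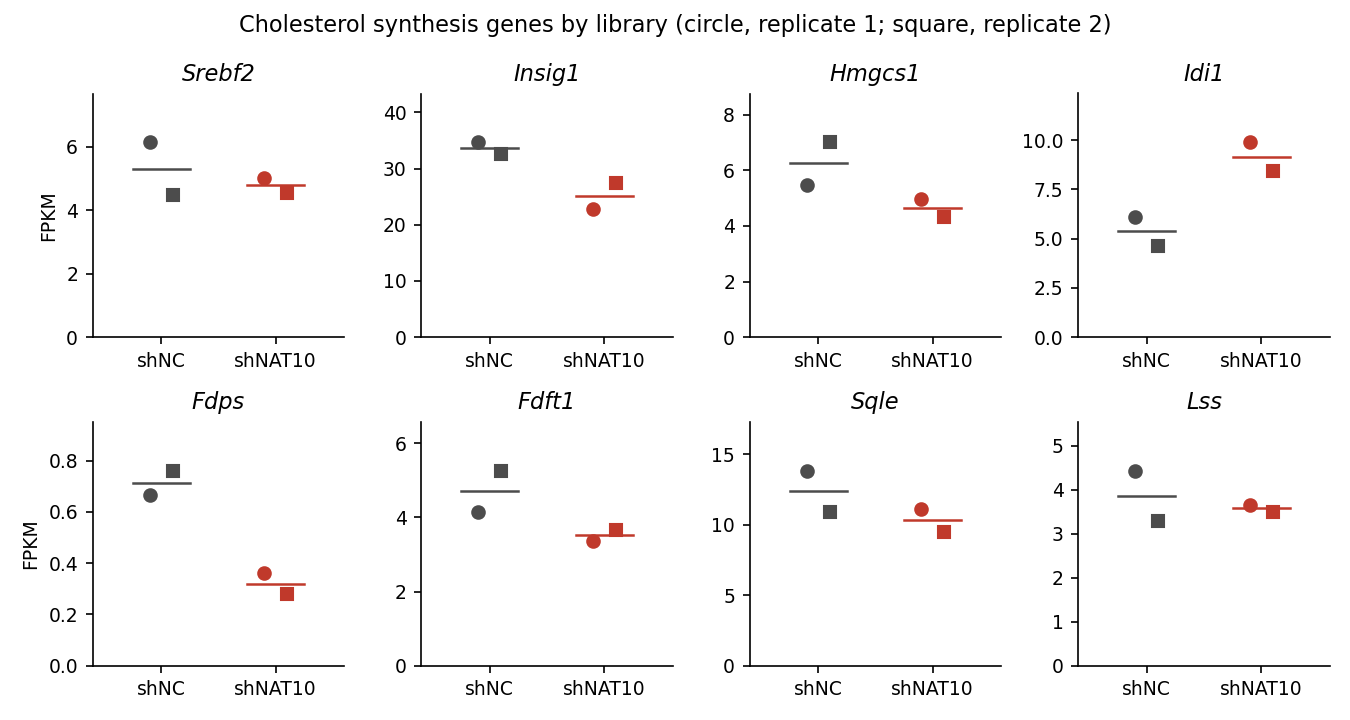
FPKM of the 8 genes in each library, on axes that start at 0, with shNC in grey and shNAT10 in red, circles for replicate 1, squares for replicate 2 and a line at each group's mean. *Idi1* is higher in both shNAT10 libraries (9.89 and 8.41) than in both shNC libraries (6.10 and 4.64), whereas *Insig1*, *Hmgcs1*, *Fdps* and *Fdft1* are lower in both.

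Of the regulators, *Srebf2*, which encodes the transcription factor itself (chr15:82147181-82205379, plus strand, GRCm38), was measured at 6.14 and 4.47 FPKM in shNC, against 5.01 and 4.55 FPKM in shNAT10. The groups overlapped, and the spread between the shNC libraries was larger than the difference between the groups. Its log2 fold change was -0.13 (95% interval -0.63 to 0.37, adjusted p = 0.769 with limma). The interval leaves room for a change of either sign.

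An intron of *Srebf2* carries the microRNA gene *Mir33*, whose product is known to restrain sterol efflux through *Abca1*. Its mature form miR-33-5p (chr15:82198127-82198147, plus strand) is shown with the seed, bases 2 to 8, in capitals.
miR-33-5p: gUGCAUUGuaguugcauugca
No base of the 69-base *Mir33* locus lies in a *Srebf2* exon, and *Mir33* was listed at 0 in all 4 libraries, which were made for long RNA and do not measure the mature microRNA. *Abca1* was at 1.09 and 0.691 FPKM in shNC and at 1.31 and 0.950 FPKM in shNAT10, where the groups overlapped.

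*Insig1* (chr5:28071363-28078662, plus strand) encodes the endoplasmic reticulum protein that retains SREBP2 and is itself a target of it. The libraries gave 34.7 and 32.6 FPKM in shNC, against 22.7 and 27.5 FPKM in shNAT10. Both shNAT10 libraries were below both controls. *Insig1* fell by 0.43 on the log2 scale (SE 0.12, 95% interval -0.75 to -0.10, adjusted p = 0.217 with limma), a level 1.34 times higher in shNC. Its call was lost without shNC replicate 1 (log2 fold change -0.38), shNC replicate 2 (-0.47) or shNAT10 replicate 1 (-0.29), and also in limma without the trend. The ratio of *Insig1* to *Srebf2* overlapped between the groups, at 5.65 and 7.29 in shNC and 4.54 and 6.03 in shNAT10.

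*Hmgcs1* (chr13:119690379-119708260, plus strand) encodes the cytosolic HMG-CoA synthase that starts the route to mevalonate. Its level was 5.49 and 7.0 FPKM in shNC, against 4.98 and 4.30 FPKM in shNAT10. Both shNAT10 libraries were below both controls, but *Hmgcs1* was not called, with a log2 fold change of -0.41 (95% interval -0.87 to 0.04, adjusted p = 0.334 with limma). That value ran from -0.24 without shNC replicate 2 to -0.59 without shNC replicate 1. Across 557 bases its exons overlap those of the antisense gene *Gm48342*, which takes in 35.1% of its coding sequence and was at 3.81 and 6.03 FPKM in shNC, against 4.20 and 4.26 FPKM in shNAT10. The strand setting of the counting is not given in the sources used here, so reads from this stretch cannot be assigned with certainty.

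*Idi1* (chr13:8885501-8892451, plus strand) encodes isopentenyl diphosphate isomerase, which balances the pair of isoprene units from which all longer isoprenoids are built. It was measured at 6.10 and 4.64 FPKM in shNC and at 9.89 and 8.41 FPKM in shNAT10, so that the groups were separate. *Idi1* rose by 0.77 on the log2 scale (SE 0.18, 95% interval 0.29 to 1.24, adjusted p = 0.169 with limma), a 1.70-fold difference in mean FPKM. The call was lost without shNC replicate 2 (log2 fold change 0.57), shNAT10 replicate 1 (0.65) or shNAT10 replicate 2 (0.88). Stretches of 75 bases identical to transcripts of other genes made up 16.7% of its transcript sequence, and its untranslated exons overlap *Gm48574* on the other strand, so a part of its reads could belong elsewhere.

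The ratio of *Idi1* to each of the other 7 genes within a library gave a view that library scaling cannot alter. Relative to *Sqle*, *Idi1* was at 0.440 and 0.424 in shNC and at 0.886 and 0.884 in shNAT10, a log2 difference of 1.03. Relative to *Srebf2* it was at 0.992 and 1.04 in shNC and at 1.97 and 1.85 in shNAT10. The ratio was higher in both shNAT10 libraries than in both shNC libraries for all 7 genes, with log2 differences from 0.87 against *Lss* to 1.95 against *Fdps*. Against the geometric mean of *Hmgcs1*, *Fdft1*, *Sqle* and *Lss*, 4 enzymes none of which limma called with all libraries, it was 0.997 and 0.769 in shNC and 1.93 and 1.76 in shNAT10. *Hmgcs1* (log2 fold change -0.41) and *Fdft1* (-0.40) were nonetheless lower in both shNAT10 libraries. All 7 genes had a log2 fold change below 0, so each ratio holds their fall as well as the rise of *Idi1*. These ratios are a description without a test of their own.

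**Figure D3:**
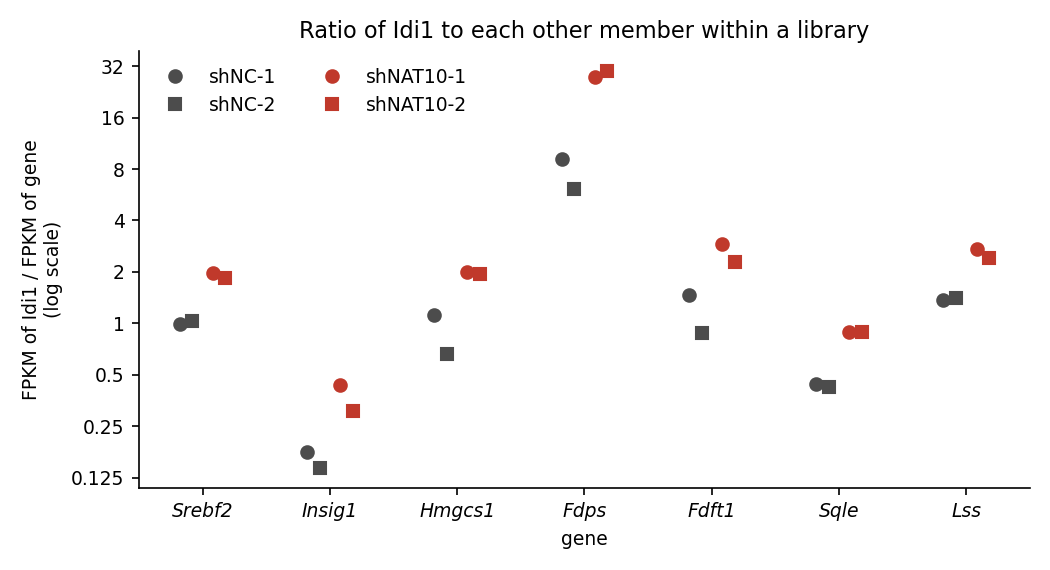
Ratio of the FPKM of *Idi1* to that of each other gene within a library, on a log scale, with shNC in grey and shNAT10 in red. The shNAT10 points lie above the shNC points for all 7 genes, for example at 0.886 and 0.884 over *Sqle*, against 0.440 and 0.424.

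*Fdps* (chr3:89093588-89101959, minus strand) encodes farnesyl diphosphate synthase, whose product stands at the branch toward sterols, prenyl groups and dolichol. It stood at 0.668 and 0.761 FPKM in shNC and at 0.360 and 0.279 FPKM in shNAT10. The groups were separate, and *Fdps* fell by 0.96 on the log2 scale (SE 0.32, 95% interval -1.81 to -0.12, adjusted p = 0.259 with limma). The added 0.1 shrinks the difference of a gene with levels as low as these. These levels rest on 33, 38, 19 and 18 recovered fragments. With the replicate number fitted as a block *Fdps* was not called. Its call was lost without shNC replicate 1 (log2 fold change -1.04), shNC replicate 2 (-0.88) or shNAT10 replicate 2 (-0.82), and a pseudocount of 1 in place of 0.1 gave a log2 fold change of -0.38. Another annotated gene on the same strand, *Gm43738*, covers 85.9% of the coding bases of *Fdps* and was listed at 0 in all 4 libraries. Of the stretches of 75 bases in its transcripts, 23.5% also occur in transcripts of other genes, so both its level and its difference are uncertain, and the part of this overlap in them was not tested.

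*Fdft1* (chr14:63145150-63179578, minus strand) encodes squalene synthase, the step that commits farnesyl diphosphate to sterols. It was measured at 4.15 and 5.26 FPKM in shNC and at 3.37 and 3.67 FPKM in shNAT10. Both shNAT10 libraries were below both controls, and *Fdft1* was not called, with a log2 fold change of -0.40 (95% interval -0.84 to 0.04, adjusted p = 0.336 with limma). It passed the threshold without shNC replicate 1, at a log2 fold change of -0.57, and shrank to -0.23 without shNC replicate 2. Outside its coding sequence, 774 exon bases overlap *Ctsb* on the other strand, which was at 19.6 and 22.9 FPKM in shNC, against 26.9 and 27.1 FPKM in shNAT10.

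*Sqle* (chr15:59315077-59331192, plus strand) encodes squalene epoxidase, an oxygen-dependent step that is often limiting for sterol synthesis. Its libraries gave 13.8 and 10.9 FPKM in shNC, against 11.2 and 9.52 FPKM in shNAT10. The groups overlapped, with a log2 fold change of -0.25 (95% interval -0.68 to 0.17, adjusted p = 0.517 with limma), and with 1 library left out it ran from -0.42 (shNC replicate 2) to -0.08 (shNC replicate 1). *Lss* (chr10:76531588-76557138, plus strand) encodes lanosterol synthase, which closes the sterol rings. It was measured at 4.44 and 3.29 FPKM in shNC and at 3.66 and 3.51 FPKM in shNAT10, the shNAT10 values lying between the controls. Its log2 fold change was -0.09 (95% interval -0.58 to 0.40, adjusted p = 0.842 with limma), and 8.5% of its coding bases overlap the antisense gene *4930483K19Rik*.

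The same libraries were also fitted with limma-voom on the fragments recovered from FPKM, a count model in which 7.87% of 20065 genes reached an adjusted p under 0.05. There 2 of the 8 genes did so, *Idi1* with a log2 fold change of 0.77 and an adjusted p = 0.00260, and *Insig1* at -0.42 with an adjusted p = 0.0247. Over the other alternatives the adjusted p of *Idi1* reached 0.560 and that of *Insig1* 0.511, both with shNAT10 replicate 1 left out. *Hmgcs1* (-0.43) and *Fdft1* (-0.40) passed the 1.2-fold and unadjusted threshold in this fit, beside *Idi1*, *Insig1* and *Fdps*, so that 5 of the 8 genes did, beside 19.4% of all genes. The adjusted p of *Hmgcs1* was 0.113 and that of *Fdft1* 0.183 with limma-voom. *Fdps* stood at -1.17 with an adjusted p = 0.0804.

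**Figure D4:**
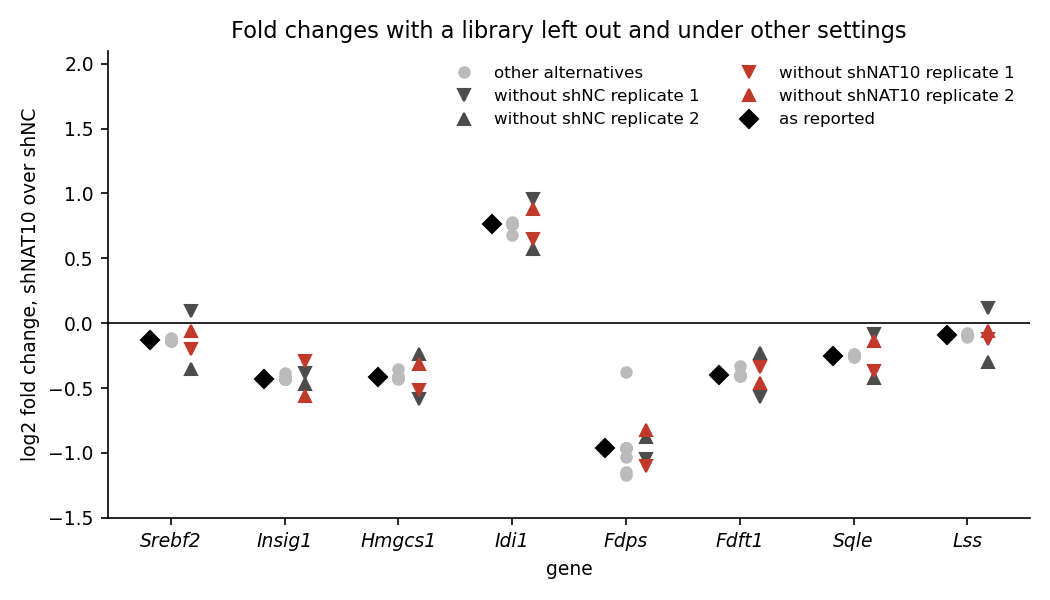
Log2 fold change (shNAT10 over shNC) of each gene as reported (black diamonds), with 1 library left out (triangles) and under the other alternatives (light circles). *Idi1* stays above 0 and *Insig1*, *Hmgcs1*, *Fdps*, *Fdft1* and *Sqle* below 0 throughout, whereas *Srebf2* (0.09) and *Lss* (0.12) cross to above 0 without shNC replicate 1.

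Around the 8 genes, 50 others of sterol and fatty acid metabolism were grouped in 7 lists, and 49 could be tested. The test called 4 of them higher (8.16%), near the share of all genes, and 11 lower (22.4%), beside 7.83% of all genes, while 34 were not called. With limma none of them had an adjusted p under 0.05 and 15 an unadjusted p under 0.05, and with limma-voom 7 of 49 had an adjusted p under 0.05, beside 7.87% of all genes. Whichever library was left out, fewer were called lower, from 3 to 6, and from 2 to 4 were called higher. The share of neighbours called lower was then 8.16% without shNC replicate 1, beside 8.25% of all genes, and 12.2% without shNC replicate 2, beside 6.92%. It was 6.12% without shNAT10 replicate 1 or shNAT10 replicate 2, beside 4.47% and 5.01% of all genes. Their median log2 fold change was -0.02. Of the 5 other enzymes between acetyl-CoA and isopentenyl diphosphate, 1 was called higher and 3 lower, beside 8.41% and 7.83% of all genes. Their median was -0.36. *Acat2*, the thiolase that makes acetoacetyl-CoA, rose by 0.57 (adjusted p = 0.193 with limma), from 2.58 and 2.81 FPKM to 3.79 and 4.31 FPKM. *Pmvk*, which adds a phosphate to phosphomevalonate, fell by 0.58 and *Mvd*, the decarboxylase just before *Idi1* in the route, fell by 0.87 (adjusted p = 0.281 and 0.215 with limma). *Mvd* was at 3.76 and 5.03 FPKM in shNC and at 2.79 and 1.96 FPKM in shNAT10, so that the enzymes on either side of isopentenyl diphosphate, *Mvd* and *Idi1*, were called in opposite directions.

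Of the 10 genes from lanosterol to cholesterol, 1 was called higher and 0 lower, beside 8.41% and 7.83% of all genes, with a median of 0.05. It was the sterol reductase *Tm7sf2*, at 0.440 and 0.459 FPKM in shNC, against 0.777 and 0.861 FPKM in shNAT10 (log2 fold change 0.74, adjusted p = 0.290 with limma). *Lbr*, a nuclear membrane protein with the same enzyme activity and the most abundant gene of this list, was at 33.7 and 24.6 FPKM in shNC, against 36.6 and 26.9 FPKM in shNAT10. Of the 4 genes on the side branches, *Pdss1*, which builds the tail of coenzyme Q, rose by 0.69 (adjusted p = 0.115 with limma). *Dhdds*, of the dolichol branch, fell by 0.55 and *Ggps1*, which makes geranylgeranyl diphosphate, by 0.37. *Dhdds* was at 39.6 and 39.1 FPKM in shNC and at 26.4 and 27.5 FPKM in shNAT10.

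None of the 5 genes for SREBP escort, retention and cleavage was called by limma, where none had an unadjusted p under 0.05, and 1 by limma-voom. A count of 1 in 5 is near the 19.4% of all genes called by limma-voom. The gene was *Srebf1*, which encodes the relative of SREBP2 that favours fatty acid synthesis, at a log2 fold change of -0.39 (adjusted p = 0.191 with limma-voom). Among them *Insig2*, the relative of *Insig1* and the most abundant of this list by the mean of the 4 libraries, was at 6.96 and 9.73 FPKM in shNC and at 8.65 and 8.40 FPKM in shNAT10, with a log2 fold change of 0.05. Of the 10 tested genes for sterol uptake and traffic, 0 were called higher and 3 lower by limma, beside 8.41% and 7.83% of all genes, with a median of -0.16. *Lipa*, the lysosomal lipase that frees cholesterol from imported esters, fell by 0.82 (adjusted p = 0.0753 with limma), from 20.6 and 21.6 FPKM to 12.7 and 11.2 FPKM. *Npc2*, the lysosomal sterol carrier and the most abundant of this list over the 4 libraries together, though below *Lipa* in both shNC libraries, overlapped between the groups, at 12.1 and 18.5 FPKM in shNC, against 17.0 and 19.4 FPKM in shNAT10. Of 5 genes for efflux and esterification, limma called 1 lower, beside 7.83% of all genes. This was *Nr1h2*, a sterol-sensing nuclear receptor, which fell by 0.38. *Soat1*, the esterifying enzyme and the most abundant of them by the mean of the 4 libraries, was at 9.08 and 9.62 FPKM in shNC, against 7.71 and 8.50 FPKM in shNAT10. In the list of 10 genes for fatty acid synthesis, 1 was called higher and 2 lower, beside 8.41% and 7.83% of all genes. *Scd1* rose by 0.66, whereas *Scd2*, a desaturase of the same kind, fell by 0.37 and *Fasn*, the fatty acid synthase, by 0.65.

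**Figure D5:**
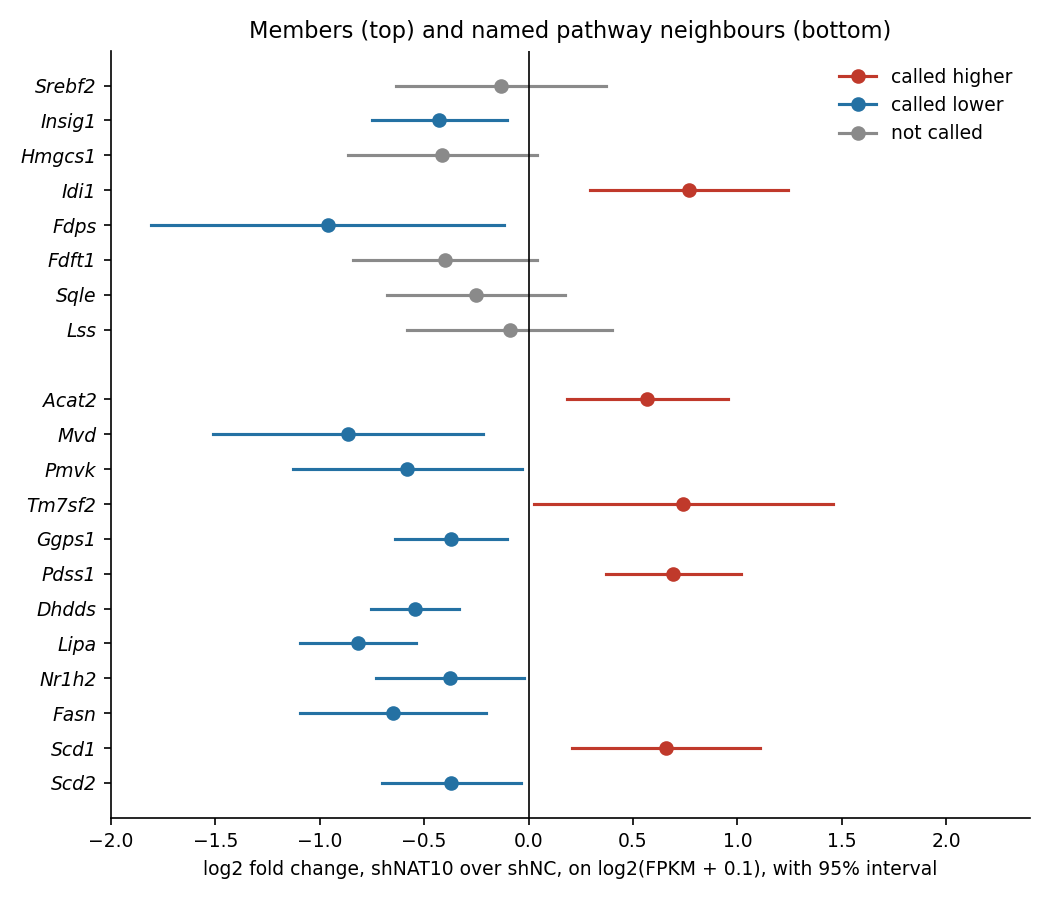
Log2 fold change of shNAT10 over shNC on the scale of log2(FPKM + 0.1), with 95% intervals, for the 8 genes (top) and 12 called genes of the neighbouring lists (bottom), in red where called higher, blue where called lower and grey where not called. *Idi1* (0.77) is the only red point among the 8, and the intervals of *Hmgcs1* and *Fdft1* reach just past 0.

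The mean profile of the 8 genes over the 4 libraries, centred for each gene on log2(FPKM + 0.1), was 0.17 and 0.07 in shNC and -0.07 and -0.17 in shNAT10. *Sqle* was the nearest of the 8 to that mean, at a Euclidean distance of 0.191, and *Idi1* the farthest, at 1.03. Among the 3572 other genes that averaged 10 FPKM or more, those nearest to the mean profile were *Ola1* (0.0267), *Anp32e* (0.0333), *Kdelr1* (0.0417) and *Edem3* (0.0419). With 4 libraries and a shallow profile such nearness is easily met, and it is given as a description only.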

How the data were processed

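The Long RNA-seq libraries numbered 4, with 2 in each of the groups that the sample titles give. According to the submitters' processing notes the authors used cutadapt, HISAT2 and DESeq2 on mm10, with no versions. The methods describe rRNA-depleted libraries, whereas the labels name mRNA isolation and a directional kit. The counter, annotation and strand setting are not given in the sources used here. The authors deposited FPKM for 53465 genes per library. A second table, which holds their own log2 fold changes and p-values, was not used. Columns of single libraries left out numbered 0.

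Genes that averaged 0.1 FPKM or more were compared on log2(FPKM + 0.1) with limma 3.58.1 in R 4.3.3 (lmFit, eBayes with trend, two-sided, no block). The threshold of a 1.2-fold change and p of at most 0.05 is the study's, with Benjamini-Hochberg adjusted p over all 20116 genes beside it. Exact permutation tests of the mean FPKM were run for the 8 genes. The 8 genes and all lists were chosen with earlier results of these data known. Named are the 8 genes, *Nat10*, called genes and the most abundant gene of each pathway list, the genes nearest in profile and the cell type markers. *Abca1*, *Srebf1*, *Ctsb*, *Mir33* and the genes that overlap the 8 were named after their values were seen. A few genes of the lists are counted but not reported by name here.

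Fragments were recovered from FPKM with GENCODE M21 exon lengths. The divisor of each library was taken from the step between low values, and 96.0 to 96.6% of values under 50 fragments were within 0.02 of a whole number. *Srebf2* was not, so its fragments are approximate. A level of 3 fragments on 1 kb is 0.196 to 0.255 FPKM. Such counts cover counting error only.

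Alternatives tried were a pseudocount of 1 or 0.01, no filter or a filter at a mean of 1 FPKM, median-ratio rescaling, the same FPKM total over protein-coding genes, quantile normalization, no trend, a replicate block, limma-voom on recovered fragments and each library left out. Leaving out *Fdps* was chosen after seeing the data. Overlaps were measured on GENCODE M21 (GRCm38). Tables and plots were made in Python 3.11.15 (pandas 2.3.3, numpy 2.4.6, matplotlib 3.10.9, scipy 1.17.1).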

Additional observations from a re-analysis of the deposited data

How the results depend on the processing

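Of 196 values recomputed under an alternative, 166 kept their direction and side of the threshold, or stayed close to the value reported. Median-ratio rescaling, with a size factor of 1.004 in each library, could hardly move any of them. With a library left out the genes called higher ranged from 1108 to 1734 and those called lower from 899 to 1659, the pathway neighbours called higher from 2 to 4 and lower from 3 to 6, and the median of the 8 genes from -0.33 to -0.23. Neighbours called lower numbered 7 with the same FPKM total over protein-coding genes and 6 without the trend. Without shNC replicate 1 *Srebf2* (range -0.36 to 0.092 over the libraries left out) and *Lss* (-0.30 to 0.12) changed sign, and the cause was not tested. In these fits the lone library of a group is assumed to vary like the others. *Nat10* stayed below 0 (-1.35 to -0.83), but its call was lost without shNAT10 replicate 1 or shNAT10 replicate 2. *Insig1* was not called without the trend, and *Hmgcs1* was called with the protein-coding total. With a mean FPKM of at least 1 *Fdps* was not tested, and a pseudocount of 1 gave it -0.38. Genes with an adjusted p under 0.05 numbered 88 as reported, 0 to 296 in the other limma fits on FPKM and 1580 with limma-voom. Without *Fdps* the median was -0.25. Same-numbered libraries did not deviate together (correlation 0.0071). A replicate block gave 1587 higher and 1527 lower calls, lost the call of *Fdps* and changed no other call among the 8. At this depth *Fdps* rests on 18 to 38 fragments a library.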
